A study of Rattus norvegicus with 10 samples.

Results

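Ptgs2, which encodes cyclooxygenase-2, was examined together with the genes of prostaglandin synthesis, the prostaglandin E2 receptors and the enzyme of prostaglandin breakdown in the cortex of rats with an experimental stroke. The set held 10 genes (Ptgs2, Ptgs1, Ptges, Ptgds, Ptgis, Ptger1, Ptger2, Ptger3, Ptger4 and Hpgd) of the 18166 distinct gene symbols on the array. They were chosen by name: a gene was taken from the probe sets whose annotation lists its symbol alone, and the probe set with the highest mean over the arrays stood for a gene with several. This gave 11 probe sets of 18511, since Ptger2 had 2 probe sets with identical values on every array, and 1 of them was used.

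The arrays came from adult male Sprague-Dawley rats killed 3 hours after surgery, with 1 array for each animal. In the MCAO+NRG1 group (n = 3) the left middle cerebral artery was occluded permanently with an intraluminal suture, and neuregulin-1 (NRG1, given as the EGF-like domain of NRG1β) was injected into the internal carotid artery just before the occlusion. In the MCAO group (n = 3) the same occlusion followed an injection of the vehicle, bovine serum albumin in phosphate-buffered saline. The sham group (n = 4) had the surgery with no filament, and an injection into these animals is not stated, so the occlusion and the vehicle injection cannot be told apart in comparisons with sham. RNA was taken from the left cortex. The study takes the cortex at this time as the penumbra, the tissue around the infarct core.

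Cyclooxygenases turn arachidonic acid, which phospholipases release from membranes, into prostaglandin H2. Terminal synthases make the single prostanoids from it: Ptges (microsomal prostaglandin E synthase-1) makes prostaglandin E2, Ptgds (lipocalin-type prostaglandin D synthase) makes prostaglandin D2 and Ptgis makes prostacyclin. Ptgs1 is the constitutive enzyme. Ptgs2 is an immediate early gene in neurons of the cortex, induced by synaptic activity, and also an inflammatory gene in vessels, glia and leukocytes. Prostaglandin E2 acts through the receptors EP1 to EP4 (Ptger1 to Ptger4), and 15-hydroxyprostaglandin dehydrogenase (Hpgd) inactivates it.

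The Ptgs2 promoter is shown because Ptgs2 was the single gene of the set called in both comparisons with sham. The 250 bases before the start of Ptgs2 are given 5′ to 3′ as in the rat RefSeq assembly GRCr8, chr13:64713813-64714062, plus strand, with motif matches in capitals.
Ptgs2: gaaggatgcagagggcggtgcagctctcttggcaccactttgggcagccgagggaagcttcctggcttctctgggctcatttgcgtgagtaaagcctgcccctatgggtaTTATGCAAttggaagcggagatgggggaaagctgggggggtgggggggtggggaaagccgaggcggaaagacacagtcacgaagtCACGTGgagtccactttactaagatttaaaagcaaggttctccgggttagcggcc
The first run in capitals, TTATGCAA, matched the C/EBP motif TTNNGNAA from −140 to −133 relative to the start, and the other, CACGTG, was an E-box from −55 to −50. On both strands no match was found here for the NF-kB consensus, the cyclic AMP response element (CRE) TGACGTCA, its core TGACG, the AP-1 motif TGANTCA or the TATA box TATAAA. Among 33469 rat promoter windows of the same length, 37.2% held the C/EBP motif, 5.59% the E-box, 3.54% the NF-kB consensus, 18.2% the CRE core, 1.59% the full CRE (which contains the core), 6.34% the AP-1 motif and 12.9% the TATA box. Promoter windows were found for 9 of the 10 genes, all but Ptgis. Ptges held 2 C/EBP matches and Ptgds 1, Hpgd held 1 CRE core, and Ptgs1 and Ptger1 to Ptger4 held no match to any of the motifs. A match describes the letters only.

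The values are log2 RMA values, a summary of the probe intensities of a gene made by the study's authors. Signal near background was set at 4.64 log2, the level under which 95% of 1359 olfactory and vomeronasal receptor probe sets lay. The array median over the single-symbol probe sets was 5.79 to 5.81 in MCAO+NRG1, 5.80, 5.82 and 6.12 in MCAO replicates 1, 2 and 3, and 6.05 to 6.11 in sham. MCAO replicate 3 thus lay above every sham array in this median, and the other occluded arrays lay below all of them. Results are given on the deposited scale, and again after the median of each array was subtracted (median centring) where that changed a call. Differences were tested with limma over all 18511 probe sets, and a gene was called at a Benjamini-Hochberg adjusted p under 0.05. All neuron markers (11 of 11) lay above background in the mean over all arrays, and none of them was called in any comparison. In the rat cortex homogenate fewer cells of a type and less RNA per cell cannot be told apart. The comparisons share arrays: both comparisons with sham use the same 4 sham arrays, and the MCAO arrays stand in 2 comparisons.

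Ptgs2 was higher in occluded than in sham cortex, in every array, whether or not NRG1 was given. In MCAO+NRG1 its values were 11.37, 11.40 and 11.13 log2, in MCAO 10.996, 10.51 and 10.13, and in sham 8.52, 8.32, 9.35 and 8.35. The groups did not overlap, and sham replicate 3 was the highest of its group. All arrays of MCAO lay above all of sham for 2.74% of all probe sets, and all of MCAO+NRG1 above all of sham for 2.17%. The group means were 11.30 ± 0.15 in MCAO+NRG1, 10.55 ± 0.43 in MCAO and 8.64 ± 0.48 in sham (SD; n = 3, 3 and 4). In MCAO the level was 1.91 ± 0.24 log2 above sham (SE), a 3.76-fold difference (limma adjusted p = 0.00193), and in MCAO+NRG1 2.66 ± 0.24 above sham, a 6.34-fold difference (limma adjusted p = 3.75e-05). After median centring the differences were 2.07 and 2.93 log2, with limma adjusted p = 0.00783 and 0.000254.

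Between the occluded groups Ptgs2 was 0.75 ± 0.26 log2 higher with NRG1 (SE; 95% interval 0.20 to 1.30), and did not pass the test over all probe sets (limma adjusted p = 0.999, unadjusted p = 0.0107). The 3 MCAO+NRG1 arrays lay above the 3 MCAO arrays; such a separation in this direction was found for 1.47% of all probe sets on the deposited scale and for 4.41% after centring, where Ptgs2 was 0.86 log2 higher. The difference was smallest without MCAO replicate 3, at 0.54 log2 (unadjusted p = 0.0733 in limma), and largest without MCAO replicate 1, at 0.98.

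Of the 10 genes Ptgs2 was the only one called in MCAO against sham on the deposited scale. In this comparison 6.7% of all probe sets tested were called, 1.1% higher and 5.61% lower. By unadjusted p under 0.05 it was joined by Ptges and Ptgis, where 29.0% of all probe sets passed. In MCAO+NRG1 against sham 3 of the 10 were called, Ptgs2 higher and Ptgds and Ptgis lower, where 17.3% of all probe sets were called, 1.51% higher and 15.8% lower, and Hpgd joined them by unadjusted p under 0.05, where 36.0% of all probe sets passed. The counts for the lower direction were thus made against a background in which a like share of all probe sets was lower. In MCAO+NRG1 against MCAO none of the 10 was called, and 2 of them, Ptgs2 and Ptgds, had an unadjusted p under 0.05 in limma. There 0.0054% of all probe sets (1 of 18511) were called, and 3.21% had an unadjusted p under 0.05. The median difference over all probe sets was −0.16 log2 for MCAO minus sham, −0.08 for MCAO+NRG1 minus MCAO and −0.24 for MCAO+NRG1 minus sham. After centring 1 of the 10 genes was called in each comparison with sham, Ptgs2, where 3.26% (MCAO) and 5.38% (MCAO+NRG1) of all probe sets were called, 2.2% and 3.82% higher.

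**Figure D1:**
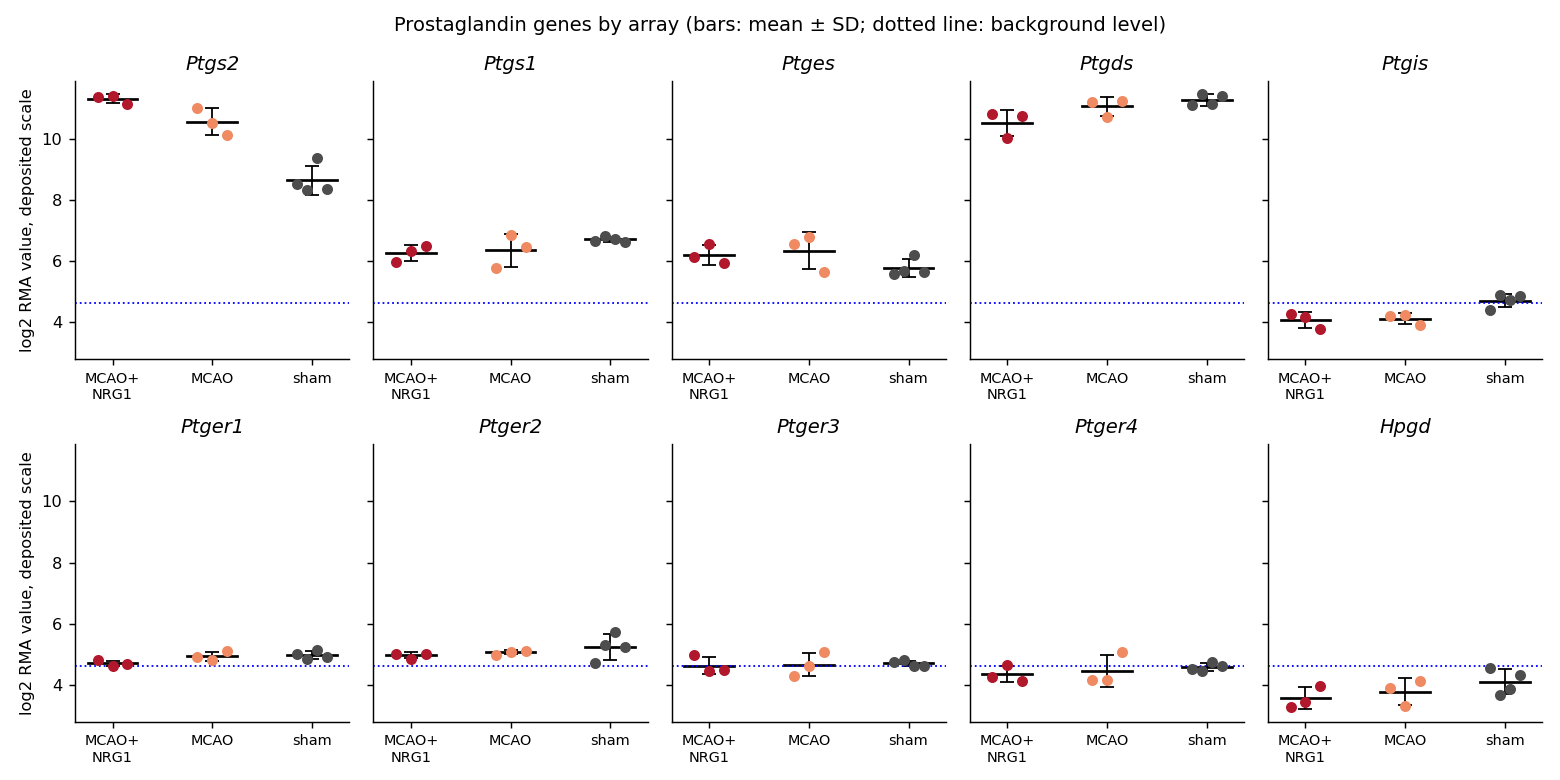
Log2 RMA values of the 10 prostaglandin genes (vertical axis, deposited scale) in the 3 MCAO+NRG1, 3 MCAO and 4 sham arrays; points are arrays, horizontal lines and bars are the mean ± SD, and the dotted line marks the background level of 4.64. Ptgs2 separates the 3 groups, with means of 11.30, 10.55 and 8.64, while the receptor genes lie close to the dotted line in every group.

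**Figure D2:**
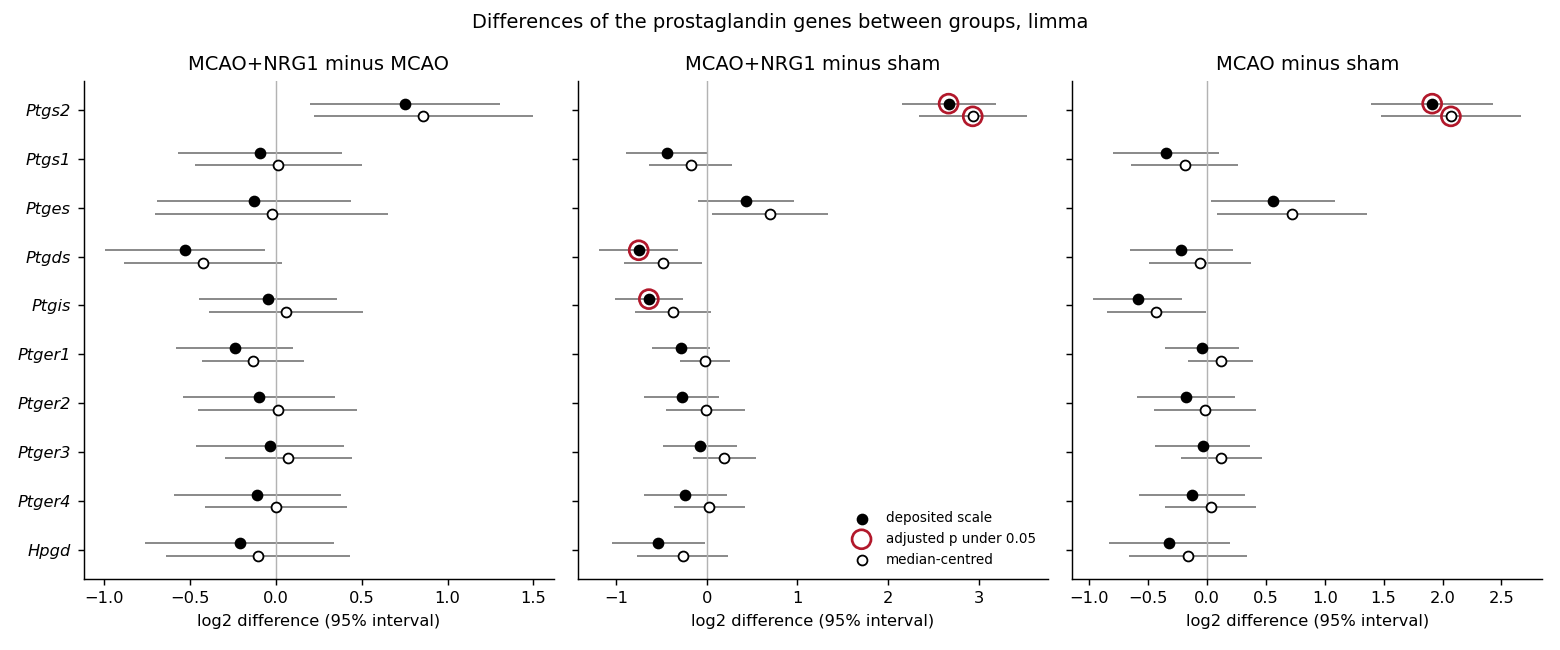
Log2 differences of the 10 genes with 95% intervals from limma (horizontal axis) for MCAO+NRG1 minus MCAO, MCAO+NRG1 minus sham and MCAO minus sham; filled points are the deposited scale, open points the median-centred values, and a ring marks an adjusted p under 0.05. Ptgs2 is ringed on both scales against sham, and Ptgds and Ptgis only on the deposited scale in MCAO+NRG1 minus sham.

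Ptgs1, the constitutive cyclooxygenase, was not called in any comparison in the fit of all 10 arrays. In the fit of only the MCAO+NRG1 and sham arrays it was called lower (limma adjusted p = 0.0484). Its values were 5.99, 6.33 and 6.48 log2 in MCAO+NRG1, 5.79, 6.84 and 6.45 in MCAO and 6.66, 6.83, 6.72 and 6.61 in sham. The MCAO+NRG1 arrays lay below all sham arrays, as they did for 34.2% of all probe sets, and overlapped with them after centring. The MCAO arrays overlapped with sham. Against sham Ptgs1 differed by −0.44 ± 0.21 log2 in MCAO+NRG1 and −0.35 ± 0.21 in MCAO (SE; limma adjusted p = 0.146 and 0.279), with 95% intervals of −0.89 to 0.01 and −0.80 to 0.10. The intervals do not hold an increase of the size seen for Ptgs2.

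The difference between Ptgs2 and Ptgs1 within an array does not move with a shift equal for all its probe sets, though it can with a shift that varies with signal. It was 5.38, 5.07 and 4.65 log2 in MCAO+NRG1, 5.21, 3.67 and 3.68 in MCAO and 1.86, 1.49, 2.63 and 1.73 in sham. All occluded arrays lay above all sham arrays, and MCAO replicate 1 lay within the range of the MCAO+NRG1 arrays. The means were 5.03 ± 0.37 in MCAO+NRG1, 4.19 ± 0.89 in MCAO and 1.93 ± 0.49 in sham (SD). They differed by 3.11 for MCAO+NRG1 minus sham and by 2.26 for MCAO minus sham, each with p = 0.0571 in a two-sided exact permutation test, which is the smallest p that 3 against 4 arrays allow. MCAO+NRG1 minus MCAO differed by 0.84 (p = 0.3 in the exact permutation test, where 3 against 3 arrays cannot go below 0.1).

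Ptges, the inducible prostaglandin E synthase that is often coupled to cyclooxygenase-2, was not called. It had 6.14, 6.56 and 5.93 log2 in MCAO+NRG1, 6.57, 6.79 and 5.65 in MCAO, and 5.57, 5.68, 6.22 and 5.65 in sham. The groups overlapped through 2 arrays: MCAO replicate 3 was as low as the lower shams, and sham replicate 3 stood apart from the other shams. The same 2 arrays were the lowest MCAO and the highest sham array for Ptgs2. Ptges was 0.56 ± 0.25 log2 higher in MCAO than in sham (SE; limma adjusted p = 0.151, unadjusted p = 0.0388) and 0.43 ± 0.25 higher in MCAO+NRG1 than in sham (limma adjusted p = 0.221). Without MCAO replicate 3 the MCAO difference was 0.90 and passed (limma adjusted p = 0.0175), as it did with arrays weighted by their quality, at 0.90 (limma adjusted p = 0.00219). Without MCAO replicate 2 it was 0.34 (limma adjusted p = 0.445).

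Ptgds, the prostaglandin D synthase of the meninges and of oligodendrocytes, was lower in MCAO+NRG1 than in sham. Its values were 10.79, 10.03 and 10.73 log2 in MCAO+NRG1, 11.20, 10.69 and 11.24 in MCAO and 11.09, 11.46, 11.11 and 11.39 in sham. MCAO+NRG1 and sham did not overlap, a separation in the lower direction that 34.2% of all probe sets showed in this comparison, while the MCAO arrays overlapped with both other groups. In MCAO+NRG1 it was 0.596 of the sham level, a difference of −0.75 ± 0.20 log2 (SE; limma adjusted p = 0.0251). This call was lost after median centring (−0.48, limma adjusted p = 0.153) and quantile normalization (−0.62, adjusted p = 0.0662). It was also lost without MCAO+NRG1 replicate 2, the lowest array (−0.50, limma adjusted p = 0.102), without MCAO+NRG1 replicate 3 (−0.85, adjusted p = 0.0505), without sham replicate 2 (−0.68, adjusted p = 0.0766) and without sham replicate 4 (−0.71, adjusted p = 0.0692). In MCAO Ptgds differed from sham by −0.22 ± 0.20 (adjusted p = 0.496 in limma), and in MCAO+NRG1 from MCAO by −0.53 ± 0.22 (adjusted p = 0.999, unadjusted p = 0.0279). With arrays weighted by their quality the MCAO difference from sham was −0.50 and passed (limma adjusted p = 0.0345). In that fit MCAO+NRG1 differed from MCAO by −0.27.

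Markers of meningeal and perivascular fibroblasts, which line the brain surface and its larger vessels, moved in the same direction as Ptgds. Of 14 measured, 10 were called lower in MCAO+NRG1 against sham and 6 in MCAO against sham (6 and 1 after centring), none higher, with list medians of −0.88 and −0.50 log2. Of all probe sets 15.8% and 5.61% were called lower in these comparisons. After centring 5.38% and 3.26% were called in either direction, 3.82% and 2.2% higher. The summed linear signal of the fibroblast markers was 1351.9 to 2041.3 in MCAO+NRG1, 1854.6 to 2295.1 in MCAO and 2757.9 to 3477.7 in sham. In the mean over all arrays 2 of the 14 lay under background. Col1a2 and Col1a1, collagen chains made by these cells, were −2.03 ± 0.29 and −1.47 ± 0.19 log2 in MCAO+NRG1 against sham (SE; limma adjusted p = 0.00138 and 0.00055). Sham replicate 2 had the highest list median and the highest Ptgds, and MCAO+NRG1 replicate 2 the lowest of both. MCAO+NRG1 replicate 1 had nearly as low a list median (−1.14 against −1.22 log2) with the highest Ptgds of its group, 10.79. Over the 10 arrays the correlation of median-centred values with Ptgds was 0.751 for the fibroblast list, −0.118 for the neuron list and −0.74 for the neutrophil list. As deviations from the group means it was 0.635, 0.763 and −0.654, with no test. Of the 9 neutrophil markers 7 lay under background. Choroid plexus markers had 7 of 10 called lower in MCAO+NRG1 and 1 in MCAO against sham (none after centring), beside the same shares of all probe sets. Their summed signal was 242.4 to 303.9 in MCAO+NRG1, 267.0 to 301.6 in MCAO and 354.7 to 3197.4 in sham. Sham replicate 2 alone held the 3197.4, and the other sham arrays had 354.7 to 772.4. Of the oligodendrocyte markers none was called lower (1 of 11 higher in MCAO against sham), and none of 9 astrocyte markers was called. The part of these cells in the Ptgds result was not tested.

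The genes whose values over the 10 arrays were most like Ptgds, by Pearson correlation of median-centred values, were Prg4 (r = 0.924), which encodes the lubricant proteoglycan lubricin, Shroom2 (r = 0.919), Foxc1 (r = 0.909), a transcription factor of the meninges that is also in the fibroblast list, Tmem204 (r = 0.899) and the splicing factor gene Sf3b2 (r = 0.892). Arrays of 3 groups went into these correlations, which describe the values and were not tested. Prg4 was 4.81 ± 0.37 log2 in MCAO+NRG1, 5.68 ± 0.45 in MCAO and 5.78 ± 0.31 in sham (SD).

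**Figure D3:**
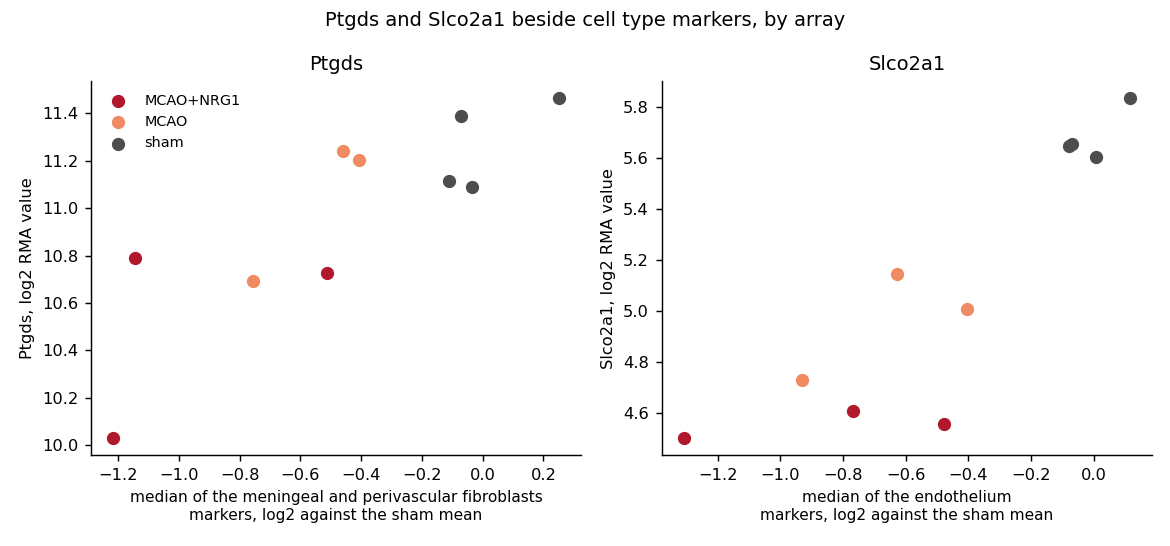
Log2 RMA values of Ptgds and of Slco2a1, a prostaglandin transporter gene described with the pathway lists (vertical axes), against the median of a cell type's markers on the same array, as log2 relative to the sham mean (horizontal axes; meningeal and perivascular fibroblast markers for Ptgds, endothelial markers for Slco2a1). Each point is 1 array; MCAO+NRG1 replicate 2 holds the lowest Ptgds value, 10.03, and the 4 sham arrays hold the highest marker medians in both panels.

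Ptgis, prostacyclin synthase of vessel walls, lay at the background level. It had 4.29, 4.18 and 3.77 log2 in MCAO+NRG1, 4.22, 4.24 and 3.92 in MCAO and 4.40, 4.89, 4.72 and 4.85 in sham. Every occluded array lay below every sham array and below the background level of 4.64, so the size of the differences is not exact. All MCAO arrays lay below all sham arrays for 17.8% of all probe sets. In MCAO+NRG1 the difference from sham was −0.64 ± 0.18 log2 (SE; limma adjusted p = 0.0265), and in MCAO −0.59 ± 0.18 (limma adjusted p = 0.0544, not called). The call in MCAO+NRG1 was lost after centring (−0.37, adjusted p = 0.249) and quantile normalization (−0.28, adjusted p = 0.297), and without MCAO+NRG1 replicate 3 (−0.48, adjusted p = 0.129) or sham replicate 2 (−0.58, adjusted p = 0.0829), 3 (−0.64, adjusted p = 0.0601) or 4 (−0.59, adjusted p = 0.0757), all in limma. The MCAO difference was called without sham replicate 1 (−0.69, adjusted p = 0.0179). Endothelial markers had 7 of 10 called lower in MCAO+NRG1 and 3 in MCAO against sham (2 and 1 after centring). Their summed signal was 1217.1 to 2295.3 in MCAO+NRG1, 1924.9 to 2150.4 in MCAO and 2642.0 to 2878.4 in sham. Mural cell markers had 4 of 8 and 1 of 8 called lower (none after centring). Of all probe sets 15.8% and 5.61% were called lower in these comparisons. After centring 5.38% and 3.26% were called in either direction, 3.82% and 2.2% higher. The choroid plexus markers, given beside Ptgds, were lowest in the occluded arrays too on the deposited scale. After centring the list median of sham replicate 1 (−0.74 log2 against the sham mean) lay within the range of the occluded arrays (−0.80 to −0.45). Sham replicate 2 was the highest array for both this list and Ptgis, and sham replicate 1 the lowest sham array for both. Over the 10 arrays the correlation of median-centred values with Ptgis was 0.79 for the choroid plexus list, 0.397 for the endothelial list and 0.211 for the mural list. As deviations from the group means it was 0.647, −0.107 and −0.273. Of all marker lists the choroid plexus list had the highest correlation by both measures, and the upper end of its sham signal rests on replicate 2 alone. The microglia and macrophage list was lowest as deviations from the group means, at −0.68. The correlations describe arrays of 3 groups, with no test. The part of these cells in the Ptgis result was not tested.

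The prostaglandin E2 receptor genes lay close to background in all groups, and none was called in any comparison. EP1 and EP3 couple to calcium and to inhibitory G proteins, EP2 and EP4 raise cyclic AMP. Ptger1 ranged over 4.63 to 4.81 log2 in MCAO+NRG1, 4.81 to 5.10 in MCAO and 4.85 to 5.16 in sham. Ptger2 ranged over 4.87 to 5.03 in MCAO+NRG1, 4.996 to 5.12 in MCAO and 4.71 to 5.72 in sham. The occluded arrays were thus close together for Ptger2 and the sham arrays spread around them. Ptger3 ranged over 4.45 to 4.97 in MCAO+NRG1, 4.30 to 5.08 in MCAO and 4.62 to 4.81 in sham. Ptger4 ranged over 4.15 to 4.67 in MCAO+NRG1, 4.16 to 5.08 in MCAO and 4.48 to 4.76 in sham. The receptor differences against sham ran from −0.28 to −0.07 log2 in MCAO+NRG1 and from −0.18 to −0.04 in MCAO, and turned sign for some receptors after centring or quantile normalization. At signals this close to background these differences do not bound a change, and Ptger4 had a mean under background in each group.

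Hpgd, the prostaglandin-inactivating enzyme, lay under background in every array. Its values were 3.29, 3.46 and 3.99 log2 in MCAO+NRG1, 3.91, 3.32 and 4.15 in MCAO and 4.56, 3.68, 3.89 and 4.32 in sham. The groups overlapped. The difference from sham was −0.53 ± 0.24 in MCAO+NRG1 and −0.32 ± 0.24 in MCAO (SE; limma adjusted p = 0.129 and 0.39).

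The genes most like Ptgs2 over the 10 arrays, by Pearson correlation of median-centred values, were Rgs2 (r = 0.992), Fos (0.988), Dnajb5 (0.987), Nr4a3 (0.98), Rgs4 (0.979), Kcnv1 (0.979), Rasl11a (0.977) and Ppm1d (0.976). Rgs2 and Rgs4 regulate G-protein signalling, Fos and Nr4a3 are activity-induced transcription factors, Dnajb5 is a heat shock co-chaperone, Kcnv1 a potassium channel subunit and Ppm1d a stress-induced phosphatase. These correlations join 3 groups of arrays and include the step between sham and occluded arrays. As deviations from the group means r was 0.938 for Rgs2, 0.859 for Fos, 0.866 for Dnajb5 and 0.902 for Nr4a3. It was 0.723 for Rgs4, 0.797 for Kcnv1, 0.84 for Rasl11a and 0.67 for Ppm1d. None of these correlations was tested. Since the genes were chosen for following Ptgs2 on these arrays, their differences between the groups are given as a description, with no test. Fos had 11.29, 11.44 and 10.52 log2 in MCAO+NRG1, 10.44, 10.22 and 9.70 in MCAO and 6.46, 6.99, 7.92 and 6.89 in sham. Rgs2 had 10.16, 10.32 and 9.81 in MCAO+NRG1, 9.67, 9.70 and 9.09 in MCAO and 8.04, 7.77, 8.70 and 7.82 in sham. Against sham the differences of the 8 were 0.53 log2 (Rgs4) to 4.02 (Fos) in MCAO+NRG1 and 0.37 (Rgs4) to 3.06 (Fos) in MCAO, and they were 0.11 (Dnajb5) to 0.97 (Fos) in MCAO+NRG1 minus MCAO.

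**Figure D4:**
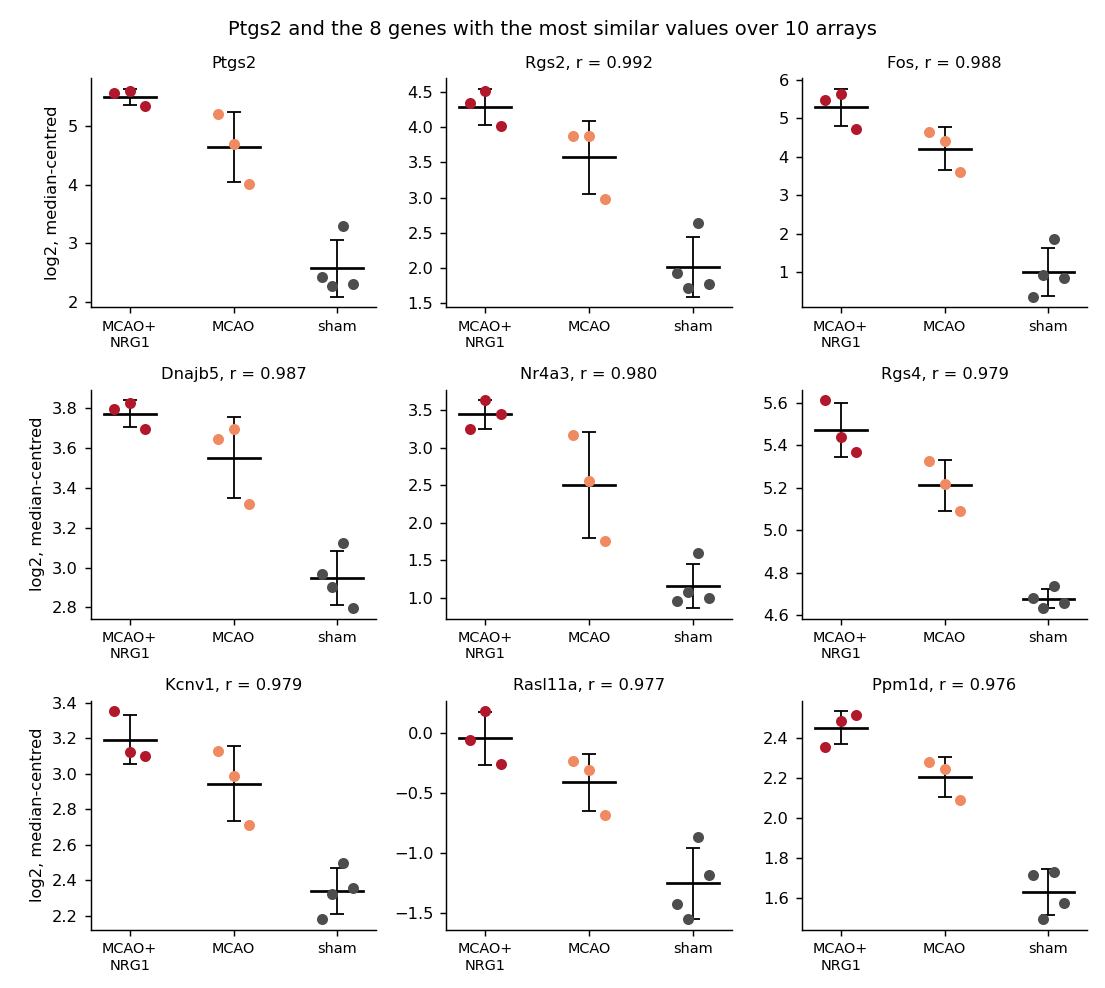
Median-centred log2 values (vertical axes, 1 scale per panel) of Ptgs2 and of the 8 genes with the highest Pearson r with it over 10 arrays; points are arrays, lines and bars the mean ± SD in MCAO+NRG1, MCAO and sham. The panels share the step between sham and occluded arrays through the choice of the genes; the difference of MCAO+NRG1 from sham is 4.02 log2 for Fos and 0.53 for Rgs4 on the deposited scale.

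Other genes around the prostaglandin pathway were taken as 7 lists, written with earlier results of these data known. Their counts are to be read beside the shares of all probe sets called: 1.51% higher and 15.8% lower in MCAO+NRG1 against sham, and 1.1% higher and 5.61% lower in MCAO against sham. Known regulators of Ptgs2 (transcription factors, cytokines, their receptors and RNA-binding proteins, with the activity-induced gene Bdnf) had 8 of 23 measured genes called higher and 3 lower in MCAO+NRG1 against sham, and 6 higher and 1 lower in MCAO against sham. The list medians were 0.15 and 0.19 log2, where the medians over all probe sets were −0.24 and −0.16. The NF-kB subunit gene Rel was higher by 1.10 ± 0.16 in MCAO+NRG1 and 0.66 ± 0.16 in MCAO (SE), with values of 7.76, 7.49 and 7.89 log2 in MCAO+NRG1, 7.40, 7.24 and 7.18 in MCAO and 6.69, 6.45, 6.75 and 6.57 in sham. These arrays did not overlap between any of the groups, a separation upward found for 2.17% of all probe sets in MCAO+NRG1 against sham, 2.74% in MCAO against sham and 1.47% in MCAO+NRG1 against MCAO. The AP-1 gene Jun was higher by 1.12 in MCAO+NRG1 and 0.93 in MCAO, the stress-induced Atf3 by 1.77 and 1.19, Bdnf by 1.64 and 1.03, and the cytokine gene Il1a by 0.89 and 1.15. The Atf3 call in MCAO was lost after centring (1.35, limma adjusted p = 0.0581) and kept in 8 of 19 alternative fits. Zfp36 and Zfp36l1, whose proteins bind AU-rich elements and destabilize inflammatory mRNAs, were called in MCAO+NRG1 against sham only (1.20 and 0.71, limma adjusted p = 0.00543 and 0.0116), with 0.55 and 0.37 in MCAO (adjusted p = 0.118 and 0.138). Whether they differ between the occluded groups was tested directly, and neither was called there. The receptor genes Il1r1 and Tnfrsf1a were called lower in MCAO+NRG1 (−0.67 and −0.60), and the transcription factor gene Nfatc2 in both occluded groups (−0.56 in MCAO+NRG1 and −0.65 in MCAO). None of these falls passed after centring, where 9 genes of the whole list, which includes Bdnf, were called higher in MCAO+NRG1 and 5 in MCAO. Of all probe sets 3.82% and 2.2% were called higher after centring in these comparisons. Il1a had group means under background in MCAO+NRG1 and sham, so that its differences are not exact, and Il1b, under background in all groups, was called only after centring in MCAO+NRG1 (0.76, adjusted p = 0.0271).

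Inflammatory cells were checked beside these genes. Neutrophil markers were mostly under background (7 of 9), with a summed signal of 151.7 to 307.1 in MCAO+NRG1, 179.1 to 195.5 in MCAO and 183.7 to 221.3 in sham. MCAO+NRG1 replicate 2, the lowest array for Ptgds, held the highest sum. Fcnb, a ficolin gene, was the 1 neutrophil marker called, lower in both occluded groups (−0.67 in MCAO+NRG1 and −0.72 in MCAO against sham). After centring S100a8, a calcium-binding protein gene under background in every group, was the 1 called, higher in MCAO+NRG1 (0.71, limma adjusted p = 0.0375). Beside the 15.8% of all probe sets called lower in MCAO+NRG1 against sham, 1 of 14 microglia and macrophage markers was called lower there, and none higher. Their summed signal was 1426.5 to 1587.0 in MCAO+NRG1, 1330.2 to 2198.4 in MCAO and 1940.7 to 2085.0 in sham.

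Among phospholipases A2, which release arachidonic acid, 7 of 18 measured genes were called lower in MCAO+NRG1 against sham and 2 in MCAO against sham, none higher, where 15.8% and 5.61% of all probe sets were called lower. The list medians were −0.31 and −0.34 log2. Pla2g10, a secreted form, had the largest called difference in MCAO, −1.002 ± 0.19 (SE; limma adjusted p = 0.0139), with 5.10, 5.04 and 4.49 log2 in MCAO and 5.44, 5.91, 6.01 and 6.14 in sham. In MCAO+NRG1 it had 5.14, 5.22 and 5.24, a difference of −0.68 ± 0.19 (limma adjusted p = 0.0283). Pla2g12b was called in both, and Pla2g2a, Pla2g2c, Pla2g4f, Pla2g5 and Pla2g6 in MCAO+NRG1 against sham. None of these passed after centring, and Pla2g2a, Pla2g4f and Pla2g12b lay under background in all MCAO+NRG1 arrays. Pla2g4a, the cytosolic enzyme that supplies cyclooxygenase in many cells, was not called, with −0.29 ± 0.17 in MCAO+NRG1 and −0.00 ± 0.17 in MCAO. The list headed endocannabinoid hydrolysis, an alternative source of arachidonic acid in brain, held 7 genes. Of these, Dagla (−0.80 in MCAO+NRG1 and −0.71 in MCAO against sham) and Faah (−0.68 in both) were called lower, and neither passed after centring. Dagla encodes an enzyme that makes an endocannabinoid, so the list is not one of hydrolysis alone.

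The other prostanoid synthases (7 measured) and the other prostanoid receptors (5 measured) held no called gene in any comparison. In limma 2 synthases and 2 receptors in MCAO against sham, and 1 synthase and 2 receptors in MCAO+NRG1 against sham, had an unadjusted p under 0.05, where 29.0% of all probe sets had one in MCAO and 36.0% in MCAO+NRG1 against sham. Ptges3, a cochaperone and cytosolic prostaglandin E synthase, was 0.73 ± 0.29 log2 higher in MCAO+NRG1 and 0.65 ± 0.29 higher in MCAO than in sham (SE; limma adjusted p = 0.0885 and 0.151). Its values were 8.76, 7.90 and 8.26 in MCAO+NRG1, 8.44, 7.90 and 8.38 in MCAO and 8.52, 7.01, 7.48 and 7.33 in sham, where sham replicate 1 lay within the occluded range. The prostacyclin receptor gene Ptgir differed from sham by −0.52 ± 0.19 in MCAO+NRG1 and −0.62 ± 0.19 in MCAO (limma adjusted p = 0.0641 and 0.0562). Ptgfr, the prostaglandin F receptor gene, differed by −0.48 in MCAO+NRG1 and −0.38 in MCAO, and Gstm2, a glutathione transferase, by −0.56 in MCAO (limma adjusted p = 0.101). All Ptgfr arrays and the MCAO arrays of Gstm2 lay under background, so these sizes are not exact.

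Prostanoid transport and breakdown held the falls that lasted through centring. Slco2a1, the prostaglandin uptake carrier of brain endothelium and other tissues, had 4.50, 4.61 and 4.55 log2 in MCAO+NRG1, 5.005, 4.73 and 5.14 in MCAO and 5.60, 5.83, 5.65 and 5.65 in sham. Neither occluded group overlapped with sham, and all MCAO+NRG1 arrays lay under the background level, so the size of its difference is not exact. All arrays lay below all sham arrays for 34.2% of all probe sets in MCAO+NRG1 and for 17.8% in MCAO. Against sham it differed by −1.13 ± 0.15 in MCAO+NRG1 (SE; limma adjusted p = 0.000743) and −0.73 ± 0.15 in MCAO (adjusted p = 0.0188), and after centring by −0.87 and −0.57 (adjusted p = 0.00441 and 0.0385). Of 19 alternative fits the MCAO+NRG1 call was kept in all and the MCAO call in 14. Slc22a8, an organic anion carrier that also moves prostaglandins, had 6.17, 6.28 and 6.90 in MCAO+NRG1, 7.12, 6.35 and 7.31 in MCAO and 7.48, 8.13, 7.70 and 7.78 in sham. The occluded arrays lay below every sham array, which the same shares of all probe sets did. It differed by −1.32 ± 0.24 in MCAO+NRG1 (limma adjusted p = 0.0047) and −0.85 ± 0.24 in MCAO (adjusted p = 0.0453), and after centring passed in MCAO+NRG1 alone (−1.05, adjusted p = 0.0251, against −0.69, adjusted p = 0.0997, in MCAO). Abcc4, a prostaglandin exporter, was called lower in MCAO+NRG1 (−0.68 ± 0.19, adjusted p = 0.0268 in limma) and not after centring. Between the occluded groups Slco2a1 differed by −0.41 ± 0.16 and Slc22a8 by −0.47 ± 0.25 log2, and neither was called (limma adjusted p = 0.999 for each). The endothelial markers given above beside Ptgis moved in the same direction as Slco2a1, among them Cldn5, a tight junction gene, at −1.52 ± 0.26 in MCAO+NRG1 against sham, and their part in this result was not tested.

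Lipoxygenase and leukotriene genes, the parallel branch of arachidonic acid use, had 3 of 13 called lower in MCAO+NRG1 (Alox12b, Alox15b and the leukotriene B4 receptor gene Ltb4r at −0.82 ± 0.26) and 1 in MCAO (Alox15b at −0.70 ± 0.16), none higher and none after centring, where 15.8% and 5.61% of all probe sets were called lower. Alox12b lay under background in every array. In MCAO+NRG1 against MCAO no gene of the 7 lists was called. Of the calls against sham in these lists, 26 in MCAO+NRG1 and 14 in MCAO, 9 were kept in MCAO+NRG1 and 1 in MCAO without sham replicate 2, and 11 and 2 without sham replicate 4. Without sham replicate 3, 14 and 6 were kept, without any single MCAO+NRG1 array 11 of the 26 in MCAO+NRG1, and without MCAO replicates 1 and 2 in turn 4 and 2 of the 14 in MCAO. After centring 10 and 6 were kept. Those of Slco2a1, Slc22a8, Rel, Jun, Fos, Atf3, Bdnf, Zfp36 and Zfp36l1 in MCAO+NRG1 and that of Fos in MCAO were kept in each of 19 alternative fits.

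**Figure D5:**
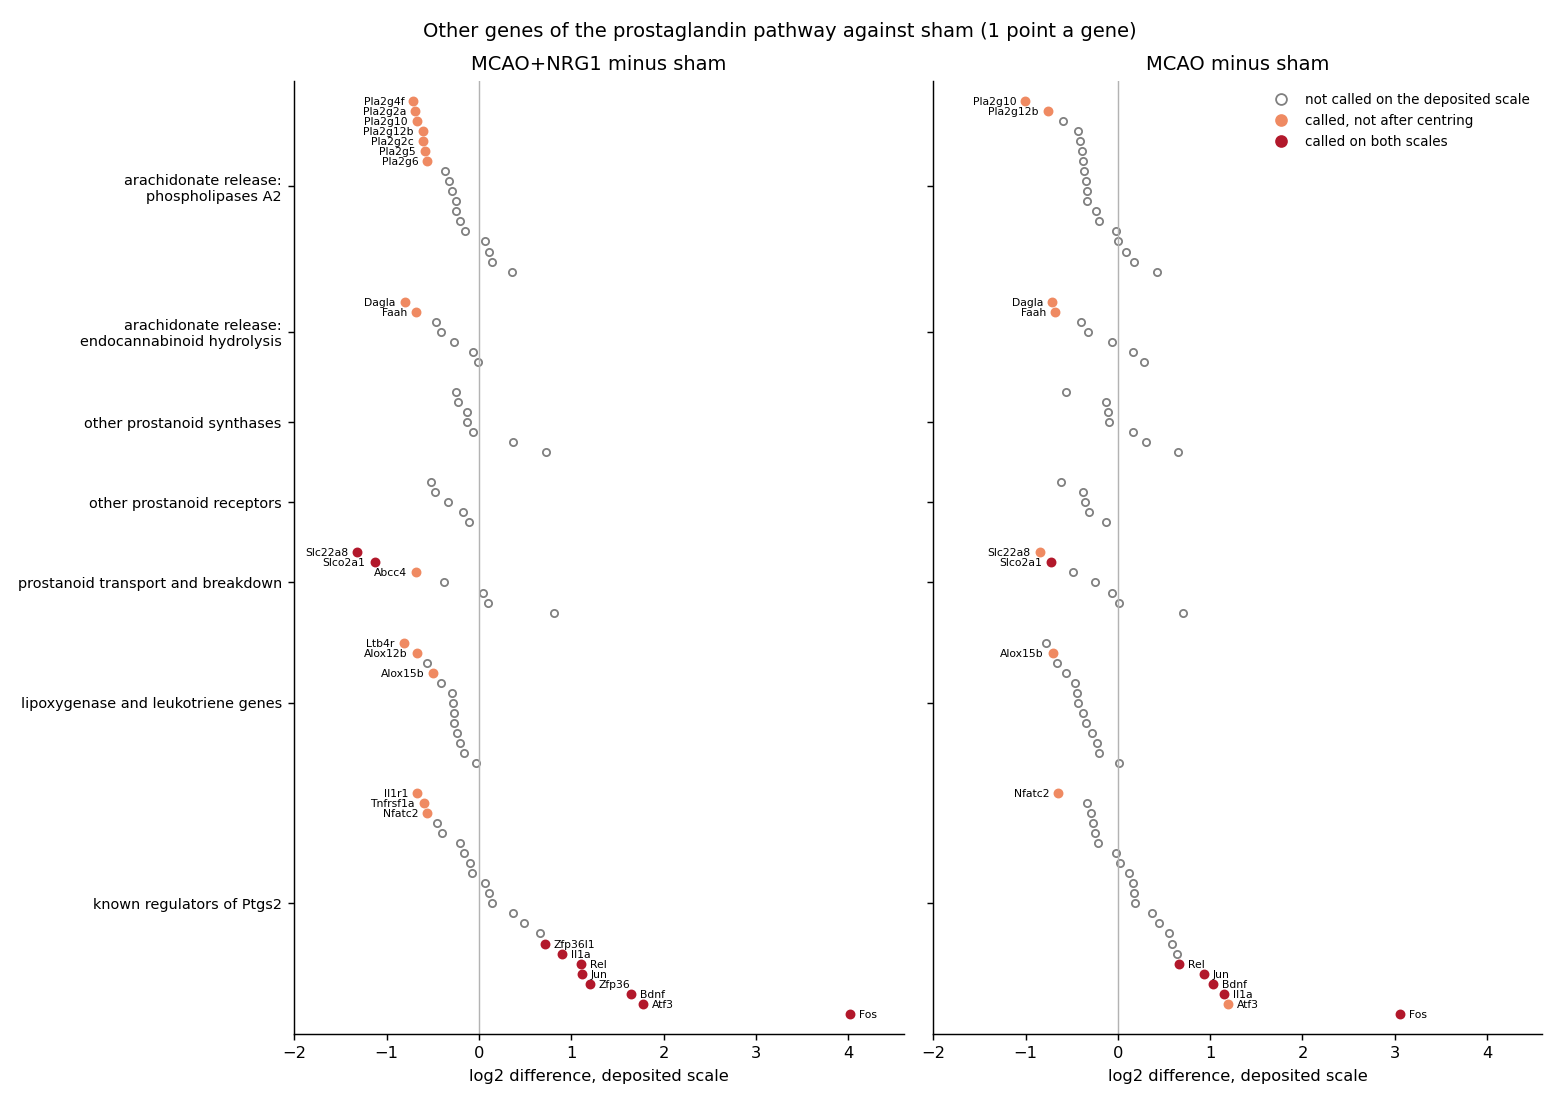
Log2 differences on the deposited scale (horizontal axis) of the genes of 7 lists around the prostaglandin pathway, for MCAO+NRG1 minus sham and MCAO minus sham; each point is 1 gene, ordered by its difference, open where it was not called, orange where it was called on the deposited scale and not after median centring, and red where it was called on both. Fos, at 4.02 and 3.06, lies farthest to the right, and Slco2a1 is the gene called lower on both scales in both comparisons.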

How the data were processed

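Left cortex RNA of 10 rats, 1 array each, was measured on Affymetrix Rat Gene 2.0 ST arrays. The authors made the deposited log2 values of 36685 probe sets with RMA in the oligo package (versions not given in the sources used here). Groups came from the sample titles. Probe sets were named through the platform annotation and the GRCr8 gene table: 18511 had a single symbol and were tested, 575 had several and 17599 none. limma 3.58.1 in R 4.3.3 fitted group means with 3 contrasts at default settings, and Benjamini-Hochberg adjustment covered all 18511, whose fit was tested on simulated data. The number of arrays limits the precision, and no counts or depth apply. Signal near background was judged from 1359 receptor probe sets. The genes and all lists were chosen with earlier results of these data known. The genes named were the 10 themselves, every called gene of the pathway lists, or otherwise up to 2 by p, and the 8 and 5 genes most like Ptgs2 and Ptgds, with up to 2 of smallest p from a marker list; Pla2g4a, Il1b and S100a8 were chosen after their values were seen. Same-numbered arrays did not deviate together (correlations −0.188 to 0.224), so the numbers were not taken as pairs. Alternatives were median centring, quantile normalization, no dim probe sets, all probe sets, averaged probe sets, trend and robust settings, array weights, fits of 2 groups, unadjusted p, a replicate block and leaving out each array.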

Additional observations from a re-analysis of the deposited data

Results flagged for a closer look

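In sham, the group of 4 arrays, 40 genes (the prostaglandin genes and the named pathway genes) were checked for a single array that stood apart by Dixon's criterion, and 4 had one, where chance gives about 1 in 20. Ptges was 6.22 log2 in sham replicate 3, against 5.57 to 5.68 in the other sham arrays. Tnfrsf1a, a tumour necrosis factor receptor gene, was 7.52 in the same array, against 7.27 to 7.30. The prostacyclin receptor gene Ptgir was 5.47 in sham replicate 4, against 5.20 to 5.23, and the lipoxygenase gene Alox12b was 3.73, under background, in sham replicate 1, against 4.09 to 4.15. No cause of these was tested.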

How the results depend on the processing

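Ptgs2 kept its direction in all 3 comparisons and its calls against sham under every alternative, with 1.69 to 2.15 log2 in MCAO minus sham, 0.54 to 0.98 in MCAO+NRG1 minus MCAO and 2.56 to 2.90 in MCAO+NRG1 minus sham when single arrays were left out. MCAO+NRG1 minus MCAO passed only with an unadjusted p, at the same 0.75. The difference of Ptgs2 and Ptgs1 within an array ranged over 1.75 to 2.52, 0.59 to 1.36 and 2.93 to 3.34 in these comparisons. Called genes among the 10 in MCAO minus sham, 1 on the deposited scale, were 4 with array weights (which add Ptges, Ptgds and Ptgis), 3 by unadjusted p and 1 to 2 without single arrays (2 without MCAO replicate 3, which adds Ptges, or sham replicate 1, which adds Ptgis). In MCAO+NRG1 minus MCAO they were 2 by unadjusted p and 0 without any single array. In MCAO+NRG1 minus sham, 3 on the deposited scale, they were 1 with all probe sets tested, 1 after median centring, 1 after quantile normalization, 1 with the replicate number as a block and 1 to 3 without single arrays (1 without MCAO+NRG1 replicate 3, sham replicate 2 or sham replicate 4). They were 4 by unadjusted p, which adds Hpgd, and 4 in the fit of only these 2 groups, which adds Ptgs1. With the replicate block 232 and 1432 probe sets were called in MCAO and MCAO+NRG1 against sham, where the fit without it called 1241 and 3199, and Ptgs2 differed by 1.82 and 2.57 log2; the numbers do not pair the animals. Calls over all probe sets in MCAO minus sham were lowest with sham replicate 4 left out (102) and highest with MCAO replicate 3 left out (3583). In MCAO+NRG1 minus sham they were lowest with MCAO+NRG1 replicate 3 left out (889) and highest with MCAO replicate 3 left out (4936). In these comparisons 7120 and 7820 were called with array weights, 604 and 995 after median centring, 742 and 1041 after quantile normalization, and 509 and 4644 in fits of only the groups compared. In MCAO minus sham 307 were called with all probe sets tested. In MCAO+NRG1 minus MCAO the count was 0 to 2, against 1 on the deposited scale.

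Values that were never called changed sign as follows. After median centring Ptger1 (0.12), Ptger3 (0.12) and Ptger4 (0.0328) turned in MCAO minus sham, Ptger3 (0.19) and Ptger4 (0.0318) in MCAO+NRG1 minus sham, and Ptgs1 (0.0141), Ptgis (0.0599), Ptger2 (0.0102) and Ptger3 (0.0733) in MCAO+NRG1 minus MCAO. After quantile normalization Ptger1 (0.22), Ptger2 (0.0379), Ptger3 (0.22) and Ptger4 (0.12) turned in MCAO minus sham, Ptger1 (0.083), Ptger2 (0.0371), Ptger3 (0.29) and Ptger4 (0.12) in MCAO+NRG1 minus sham, and Ptgs1 (0.0091), Ptgis (0.0279) and Ptger3 (0.0723) in MCAO+NRG1 minus MCAO. With array weights Ptger3 (0.0841), Ptger4 (0.0838) and Hpgd (0.0718) turned in MCAO+NRG1 minus MCAO. Centring adds a constant to each difference; the cause of the others was not tested. Without single arrays the values ran from −0.12 to 0.0271 for Ptger1, −0.24 to 0.15 for Ptger3 and −0.43 to 0.0274 for Ptger4 in MCAO minus sham, from −0.24 to 0.0207 for Ptger3 in MCAO+NRG1 minus sham, and from −0.38 to 0.15 for Ptgs1, −0.47 to 0.0948 for Ptges, −0.15 to 0.11 for Ptgis, −0.22 to 0.17 for Ptger3 and −0.26 to 0.20 for Ptger4 in MCAO+NRG1 minus MCAO. Leaving out dim probe sets removes Ptgis, Ptger4 and Hpgd, so no value exists for them there.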
